A study of Mus musculus with 2 samples.

Results

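Genes of the actin and myosin cytoskeleton were compared between the fibers and the epithelium of the embryonic mouse lens. They were all probes whose gene symbol on the array platform named an actin, an actin-binding or nucleating protein, a myosin chain or a kinase of myosin contraction, by a fixed pattern of symbols. The pattern took 205 of 45281 probes, which stand for 92 of 19057 named genes. No measured value entered that choice, but it was made with earlier results of these arrays known.

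The study profiled wild-type lenses at embryonic stage E12.5 with 1 array of lens fibers and 1 array of lens epithelium, biotin-labelled total RNA on 1-colour Illumina arrays. The labels record no treatment, and the strain, the sex, the number of embryos pooled and the way the tissues were separated are among the details not given in the sources used here. There were no replicates, so each ratio describes these 2 arrays, no p-value or SD between replicates exists, and the precision is limited by the number of arrays. In such bulk samples, fewer cells of a type and less RNA per cell cannot be told apart.

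Actin is stored in cells as monomers held by thymosins and profilins, and is built into filaments by nucleators such as the Arp2/3 complex and the formins. Filaments are capped, severed by cofilins, stabilised by tropomyosins and cross-linked by actinins and filamins. Myosin II pulls on them when its light chains are phosphorylated by kinases such as Mylk and Rock1, and a myosin phosphatase removes that phosphate. In the lens, epithelial cells keep an apical network of actin and myosin, and fiber cells build a cortical one as they elongate.

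Values are quantile-normalized intensities of the brightest probe of a gene, and log2 ratios are fibers over epithelium. A gene counted as measured when it exceeded a floor, the 95th percentile of 1580 probes for receptor and keratin-associated genes taken as silent in lens, on at least 1 array. The floor was 32.1 in fibers and 44.6 in epithelium. Where a single array exceeded its floor, the ratio is a bound that sets that reading against the dim array's floor. Bounds are written "at least", and those under 1-fold give no direction. As a measure of error between probes, but not between animals or arrays, the 2 brightest probes of 472 genes were compared. Both probes exceeded the floor on both arrays, and their log2 ratios differed by a median of 0.50. The 90th percentile of that difference was 1.84, and 25.8% of these probe pairs had opposite signs. The 32 probes taken as silent that exceeded the floor on both arrays leaned to epithelium, with a median log2 ratio of -0.49 (SD 0.84).

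The tissue labels were checked against known markers. All 7 fiber markers on the array were higher in fibers by at least 2-fold, from Crybb1, a beta crystallin, at 3389 in fibers and 183 in epithelium, to Bfsp2, a beaded filament protein, at 178 in fibers and below the floor in epithelium. Of 5 measured epithelial markers 4 were higher in epithelium, among them Cdh1, E-cadherin, at 164 in fibers and 854.5 in epithelium. Sfrp1 went the other way (2.70-fold higher in fibers).

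Beta actin (Actb), 3 of 4 measured monomer-binding proteins at 2-fold or more (Tmsb4x, Pfn1 and Tmsb10) and the myosin light chain Myl6 read higher in fibers. The myosin II heavy chains Myh9 (just short of 2-fold) and Myh11 and the kinases Mylk and Rock1 read higher in epithelium. The other 8 of 10 heavy chains and the other 2 of 4 contractility kinases were below the floor. With the arrays scaled to housekeeping genes, Actb stood at 0.02 on the log2 scale, and Acta2 and Pfn2 turned round. Of the 92 genes, 35 were measured (38.0%, against 33.9% of all named genes), 21 of them on both arrays, 7 in fibers only with a bound, 4 in epithelium only with a bound, and 3 with no direction. The difference was 2-fold or more for 7 genes higher in fibers (20% of those measured, against 15.5% of all measured genes) and 7 higher in epithelium (20%, against 18.5%). These shares lie near the background. The median log2 ratio was 0.00 both for the members and for all measured genes, but genes with no direction enter it as 0. Over genes above the floor on both arrays the median was -0.003 for the members and -0.19 for all genes. Scaled to housekeeping genes, which were themselves higher in fibers (median log2 ratio 0.93, 18 measured), the split was 1 gene higher in fibers and 14 in epithelium. Background under that scaling was 4.61% higher in fibers and 42.6% higher in epithelium. Set against the probe pairs above, Tmsb4x, Rock1, Myh11 and Mylk had absolute log2 ratios or bounds beyond 1.84, and the other 10 did not. That value is a difference between 2 probes on the same arrays, not the error of 1 ratio, and the pairs held no bounds. With the floor of 44.6 used on both arrays the Rock1 bound was -1.71, and the second Tmsb4x probe gave no direction.

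**Figure D1:**
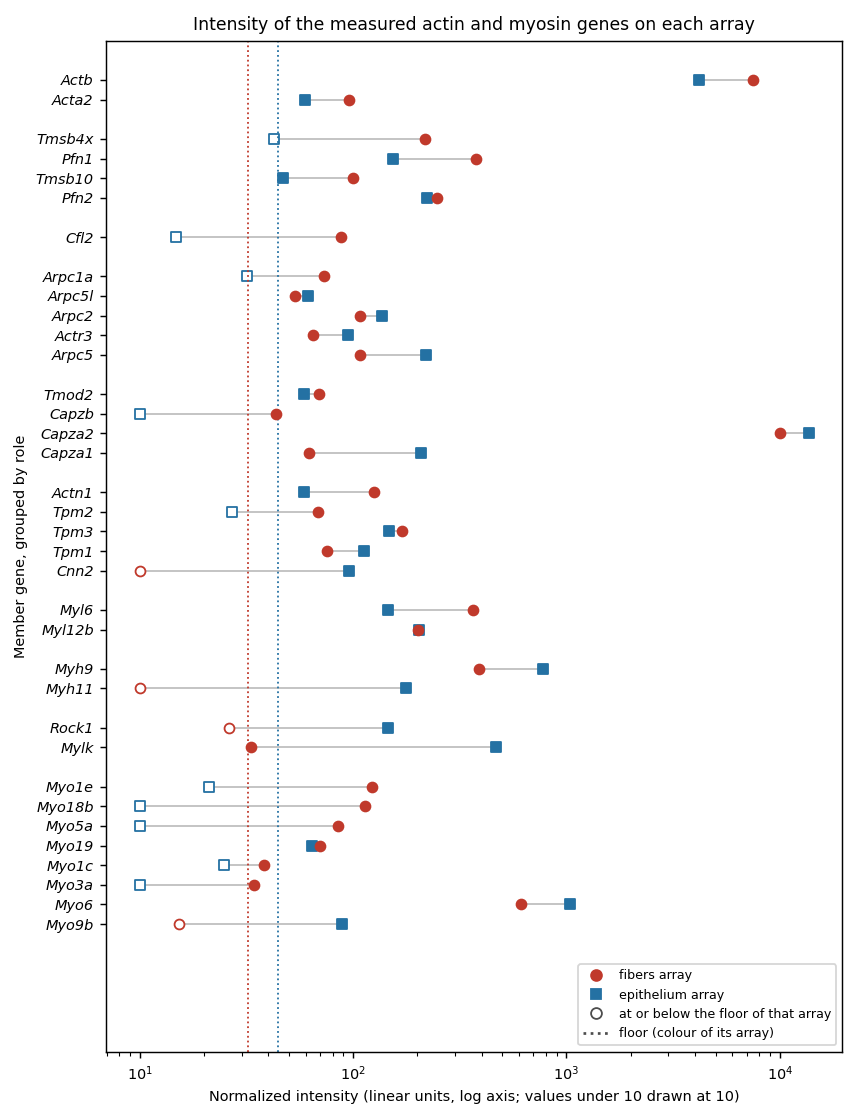
Normalized intensity (log axis) of the 35 measured genes, circles for the fibers array and squares for the epithelium array, grouped by role. Open symbols lie at or below the floor of their array, and dotted lines mark the floors of 32.1 (fibers) and 44.6 (epithelium). Actb, Tmsb4x, Pfn1 and Myl6 lie farther right in fibers, and Myh9, Mylk and Rock1 farther right in epithelium.

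Both measured actin isoforms read higher in fibers by less than 2-fold. Actb, cytoplasmic beta actin, read 7462 in fibers and 4161.5 in epithelium, a log2 ratio of 0.84 (1.79-fold). All 5 Actb probes read higher in fibers, by 1.39-fold to 2.005-fold. Acta2, smooth muscle alpha actin, read 96.0 in fibers and 59.5 in epithelium (log2 ratio 0.69, 1.61-fold). Of 6 Acta2 probes, a second gave a bound of only 0.20 and the rest were below the floor on both arrays. Scaled to housekeeping genes, Actb stood at 0.02 and Acta2 at -0.14 on the log2 scale, so neither kept a clear direction. The muscle actins Acta1, Actc1 and Actg2 and the actin-like gene Actbl2 were below the floor on both arrays.

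Of the role groups, the proteins that bind actin monomers had the largest share of genes at 2-fold or more higher in fibers, 3 of 4 measured. Over all measured genes that share was 15.5%. Tmsb4x, thymosin beta 4, which sequesters monomers, read 217 in fibers and 42.7 in epithelium, where it was below the floor (at least 4.87-fold higher in fibers). It was the 1 member still at 2-fold or more higher in fibers when scaled to housekeeping genes (log2 ratio 1.46). Its second probe read 41.3 in fibers and 34.8 in epithelium and gave no direction.

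Pfn1, profilin 1, which loads monomers onto growing filament ends, read 377.5 in fibers and 154 in epithelium (2.46-fold). A second Pfn1 probe gave at least 2.20-fold. Tmsb10, thymosin beta 10, read 99.3 in fibers and 46.6 in epithelium (2.13-fold), close to the floor, and its second probe, at 39.3 in fibers and 37.9 in epithelium, gave no direction. Scaled to housekeeping genes, Pfn1 stood at 0.47 and Tmsb10 at 0.26 on the log2 scale. Pfn2, profilin 2, read 247 in fibers and 222 in epithelium (1.11-fold), and was at -0.67 on the log2 scale when scaled to housekeeping genes. The log2 ratios of the profilins, 1.30 for Pfn1 and 0.16 for Pfn2, lay closer together than the 1.84 by which probes of 1 gene can differ. The 4 thymosin beta 15 genes, Tmsb15a, Tmsb15b1, Tmsb15b2 and Tmsb15l, were below the floor.

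Cofilins sever and depolymerise filaments. Cfl2, the muscle-type cofilin, read 87.8 in fibers and 14.8 in epithelium, a bound of at least 1.97-fold higher in fibers. A second Cfl2 probe read 35.2 in fibers and 38.8 in epithelium and gave no direction, and scaled to housekeeping genes the bound was 0.15 on the log2 scale. The only Cfl1 probe, for the non-muscle form, read 1.09 in fibers and -6.06 in epithelium. A reading under the floor, from 1 probe, does not show that the RNA was absent.

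Nucleators did not lean to fibers. In the Arp2/3 complex, which starts branched filaments, 4 of 5 measured subunits had negative log2 ratios and 1 reached 2-fold. Arpc5 read 107 in fibers and 220 in epithelium (2.05-fold higher in epithelium), and a second Arpc5 probe was at -0.73. Arpc2 read 107 in fibers and 137 in epithelium (log2 ratio -0.35). Actr3, the Arp3 subunit, was at -0.53, with a second probe above the floor in fibers only at 0.11, and Arpc5l was at -0.21. Arpc1a read 73.0 in fibers and 31.9 in epithelium, where it was below the floor (at least 1.64-fold higher in fibers), and scaled to housekeeping genes it had no direction. The formin genes Diaph1 and Diaph3 and the subunit genes Arpc1b and Arpc4 were below the floor.

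Capping proteins block the ends of filaments. Capza1, an alpha subunit of capping protein, read 62.3 in fibers and 209 in epithelium (3.35-fold higher in epithelium). Capza2, the other alpha subunit measured, read 10076.5 in fibers and 13706 in epithelium (log2 ratio -0.44), but its probes disagreed. A second Capza2 probe read 87.8 in fibers and 10.9 in epithelium, a bound of 0.98 in the opposite direction. The last Capza2 probe, at 3.10 in fibers and 3.90 in epithelium, was below the floor, so the high reading rests on 1 probe. Capzb, the beta subunit, read 43.3 in fibers and 3.90 in epithelium and had no direction. Tmod2, a tropomodulin of the pointed end, was at 0.24, and at -0.59 when scaled to housekeeping genes. Capza3, Tmod3 and Tmod4 were below the floor.

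Proteins along the filament went both ways. Actn1, the cross-linker alpha actinin 1, read 125 in fibers and 58.6 in epithelium (2.13-fold higher in fibers). Actn1 has 1 probe, and it stood at 0.27 on the log2 scale when scaled to housekeeping genes. Cnn2, calponin 2, which binds actin and myosin, read -0.88 in fibers and 96.0 in epithelium (at least 2.99-fold higher in epithelium). Its second probe was below the floor on both arrays.

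The tropomyosins, which run along filaments and govern access to them, showed no common direction. Tpm1 read 75.0 in fibers and 113 in epithelium (log2 ratio -0.59), with a second probe at -0.94. Tpm2 was above the floor in fibers only (68.1, at least 1.53-fold higher in fibers). Tpm3 read 170 in fibers and 147 in epithelium (log2 ratio 0.21), while a second Tpm3 probe read 216.5 in fibers and 92.0 in epithelium (2.35-fold higher in fibers). Scaled to housekeeping genes, the Tpm3 ratio was -0.62 and Tpm2 had no direction. Actn2, Actn3, Actn4, Cnn1, Flna, Flnc, Tpm4 and Vcl did not exceed the floor.

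**Figure D2:**
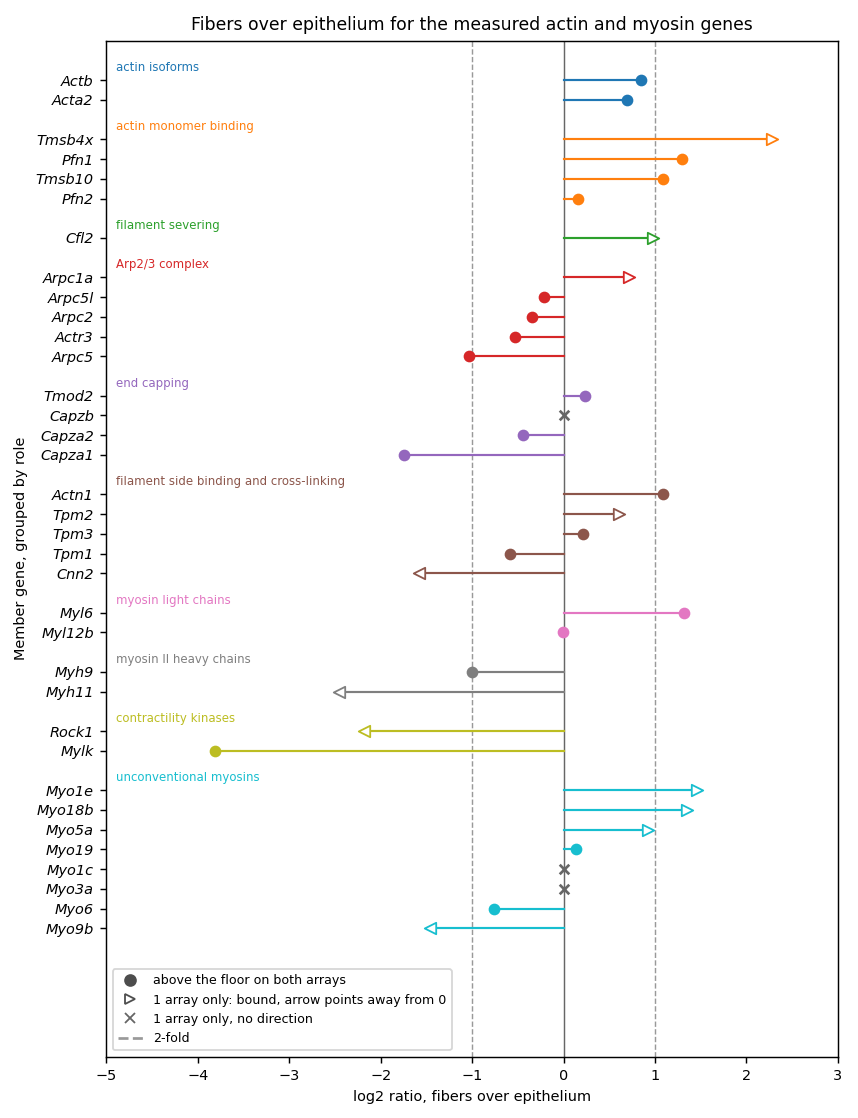
Log2 ratio of fibers over epithelium for the 35 measured genes, grouped by role. Filled points were above the floor on both arrays, open arrows are bounds, crosses have no direction and dashed lines mark 2-fold. The monomer-binding group lies right of 0, from 0.16 (Pfn2, which turned negative when scaled to housekeeping genes) to 2.28, and the measured myosin II heavy chains and contractility kinases (Myh9, Myh11, Mylk and Rock1) lie left of it, from 1.996-fold to 14.1-fold higher in epithelium.

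All 4 measured genes among the myosin II heavy chains and the contractility kinases had negative log2 ratios, 3 of them at 2-fold or more, and all 4 stayed negative under each of the 3 other scalings. Over all measured genes, 18.5% were at 2-fold or more higher in epithelium, and 42.6% when scaled to housekeeping genes. For Rock1 and Myh11 the ratio is a bound on the epithelium side, which cannot be positive, so the kept sign is no check of their direction. It is no check for Myh9 and Mylk either. The housekeeping scaling lowered ratios measured on both arrays by 0.83, the median scaling raised them by only 0.19, and the deposited values lay close to the normalized ones. With the higher floor of 44.6 used on both arrays, the bounds were -1.71 for Rock1 and -1.98 for Myh11 on the log2 scale. Mylk, myosin light chain kinase, read 33.2 in fibers, just above the floor, and 468 in epithelium (14.1-fold higher in epithelium), the largest ratio of any member. A second Mylk probe read 6.08 in fibers and 76.3 in epithelium (at least 2.37-fold higher in epithelium), and the rest of its 4 probes were below the floor on both arrays. With the floor of 44.6 used on both arrays Mylk gave a bound of -3.39 on the log2 scale, and the mean of all its probes a bound of -2.14. Rock1, a kinase of the myosin II light chains, read 26.1 in fibers, below the floor, and 146 in epithelium (at least 4.54-fold). Rock1 has 1 probe, and with a floor at the 99th percentile of the silent probes its bound was -0.85 on the log2 scale, short of 2-fold.

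Myh11, the smooth muscle heavy chain, read 8.06 in fibers and 176 in epithelium (at least 5.49-fold higher in epithelium), and its second probe was below the floor on both arrays. Myh9, the heavy chain of non-muscle myosin IIA, read 389 in fibers and 776.5 in epithelium, a ratio just short of 2-fold (1.996-fold higher in epithelium). The other Myh9 probes were below the floor. Myh10 and Myh14, the other non-muscle heavy chains, were below the floor, Myh10 at 1.09 in fibers and 1.90 in epithelium.

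Of 11 myosin light chains 2 were measured. Myl6, an essential light chain of smooth and non-muscle myosin II, read 363.5 in fibers and 146 in epithelium (2.49-fold higher in fibers), and its second probe was at least 3.19-fold higher in fibers. Under the housekeeping scaling Myl6 stood at 0.49 on the log2 scale. Myl12b, a regulatory light chain and thus a substrate of Mylk and Rock1, read 202 in fibers and 203 in epithelium, and was at -0.83 when scaled to housekeeping genes. Myl9 and Myl12a, also regulatory light chains, were below the floor, Myl9 at 0.10 in fibers and 39.7 in epithelium.

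Genes that act on the same phosphate from the other side were also measured. Ppp1r12a, the targeting subunit of myosin phosphatase, read 273 in fibers and 68.0 in epithelium (4.02-fold higher in fibers), with a second probe at a bound of 0.71 on the log2 scale. Ppp1cb, its catalytic subunit, read 241 in fibers and 95.1 in epithelium (2.53-fold higher in fibers). A second Ppp1cb probe was at 2.52-fold, and the last, at 109 in fibers and 29.9 in epithelium, where it was below the floor, gave at least 2.45-fold. These were the 2 genes at 2-fold or more in a list of 14 genes of apical constriction and myosin phosphatase, of which 4 were measured (median log2 ratio 0.67). Background was 15.5% higher in fibers and 18.5% higher in epithelium. The list had 1 gene at 2-fold or more higher in fibers and 1 in epithelium when scaled to housekeeping genes, with a median of 0.26. Background under that scaling was 4.61% higher in fibers and 42.6% higher in epithelium. Of the other measured genes of that list, Arhgap35 was at -0.34 and Shroom3, which acts in apical constriction, had no direction.

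Unconventional myosins move cargo and tether membranes to actin. Of 22 such genes 8 were measured, 2 at 2-fold or more higher in fibers and 1 in epithelium. Myo1e, a single-headed membrane myosin, read 123 in fibers and 21.0 in epithelium (at least 2.75-fold higher in fibers), and its other probes were below the floor. Myo18b read 114 in fibers and -2.14 in epithelium (at least 2.56-fold higher in fibers), but its second probe gave a bound of only 0.11 on the log2 scale. Scaled to housekeeping genes, the bounds were 0.63 for Myo1e and 0.53 for Myo18b.

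Myo9b read 15.2 in fibers and 88.2 in epithelium (at least 2.74-fold higher in epithelium), and a second probe gave at least 2.05-fold. Myo6, which walks toward the pointed end, read 613 in fibers and 1036 in epithelium (1.69-fold higher in epithelium). Myo5a, a cargo carrier, stood at least 1.89-fold higher in fibers, with no direction once the arrays were scaled to housekeeping genes. Myo19, a mitochondrial myosin, read 70.2 in fibers and 63.8 in epithelium (log2 ratio 0.14, and -0.69 when scaled to housekeeping genes). Myo1c and Myo3a, at 38.2 and 34.2 in fibers and below the floor in epithelium, had no direction.

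The genes nearest the 2-fold limit were Arpc5 (2.05-fold), Tmsb10 and Actn1 (both 2.13-fold) inside it, and Myh9 (1.996-fold), Cfl2 (at least 1.97-fold), Myo5a (at least 1.89-fold) and Actb (1.79-fold) outside it. Over all 205 probes, 61 were measured, 11 of them at 2-fold or more higher in fibers and 9 in epithelium. Higher in fibers were thus 18.0% of the 61, against 14.8% of all measured named probes, and higher in epithelium 14.8%, against 17.6%. Of 15 genes with several probes that had a direction, 2 had probes of opposite sign, Actr3 and Capza2. For 10 measured genes every other probe was below the floor, and 5 had 1 probe.

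**Figure D3:**
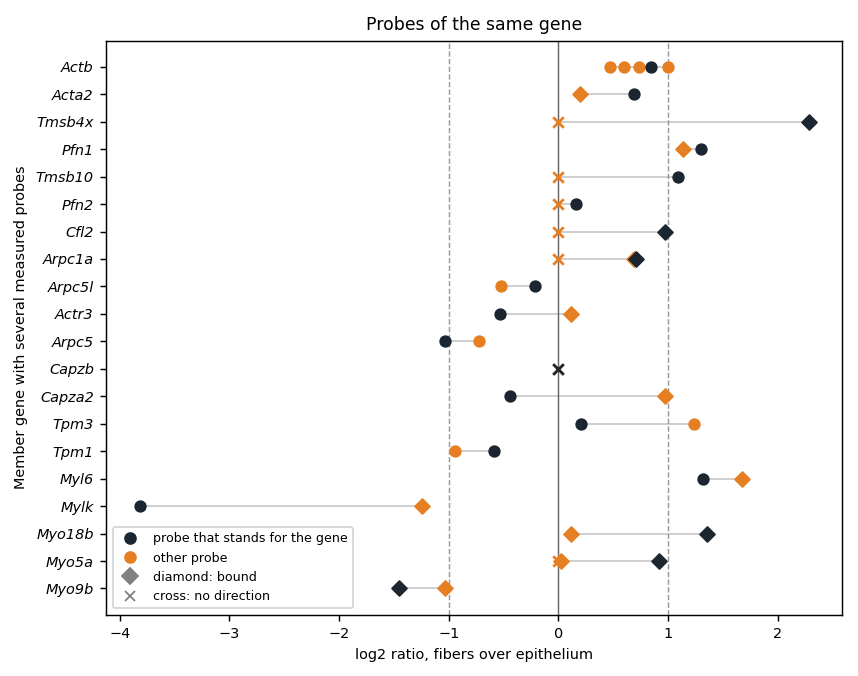
Log2 ratio of fibers over epithelium for each measured probe of member genes with several measured probes. Dark symbols stand for the gene, orange ones are its other probes, diamonds are bounds and crosses have no direction. The 5 Actb probes lie right of 0, while the probes of Capza2 and of Actr3 lie on both sides of 0.

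A list of 18 members made mainly by striated muscle was drawn up after their values were seen and holds none above the floor, so its count is a description of that choice. It leaves out Cfl2, Tpm2 and Myo18b, which muscle also makes and which were measured. The 18 genes, including Acta1, Actc1, Actn2, Actn3, 5 heavy chains (Myh1, Myh4, Myh6, Myh7 and Myh8), and 5 light chains (Myl1, Myl2, Myl3, Myl4 and Myl7), had highest readings of 28.1 in fibers and 32.8 in epithelium. Of 12 skeletal muscle markers on the array 2 were above it, Ttn, at 55.3 in fibers and 69.8 in epithelium, and Tnnc1, at 41.3 in fibers with no direction, while Myod1 and Myf5 read 3.10 and 1.09 in fibers and -2.14 each in epithelium. Summed over all values above 0, those below the floor included, the skeletal marker signal was 165 in fibers and 142 in epithelium.

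Myh11, Mylk, Acta2, Cnn1 and Cnn2 are also used by smooth muscle. Of 7 smooth muscle and pericyte markers 2 were above the floor, Smtn, at 196 in fibers and -2.14 in epithelium, and Cspg4, at 128 in fibers and 210 in epithelium. Tagln, a defining smooth muscle gene, read 1.09 in fibers and 2.88 in epithelium, Lmod1 -2.87 in fibers and -2.14 in epithelium, and Pdgfrb -8.89 in fibers and -8.09 in epithelium. The summed signal of the list was 375 in fibers and 235 in epithelium. This sum and those below also include readings under the floor. Measured markers of other cells near the lens went both ways. Of 7 periocular mesenchyme markers only Tfap2b was measured, at 36.2 in fibers and 209 in epithelium. Foxc1, Foxc2, Twist1, Prrx1, Col1a1 and Col1a2 were below the floor (summed signal 76.0 in fibers and 270 in epithelium). Of 4 retina markers only Sfrp2 was measured, at 140 in fibers and 1256 in epithelium. Rax, Lhx2 and Six6 were below the floor (summed signal 143 in fibers and 1258 in epithelium). Each of these lists thus rests on 1 gene. Higher in fibers was the endothelial marker Tek, at 83.4 in fibers and 6.92 in epithelium (at least 1.87-fold), the 1 of 5 measured, with Pecam1 and Cdh5 below the floor and a summed signal of 112 in fibers and 36.6 in epithelium. Of 4 erythroid markers 2 were measured, Hba-a1 (at least 1.72-fold higher in fibers) and Hbb-y (1.02-fold), with a summed signal of 213 in fibers and 141 in epithelium. Krt5, the 1 of 4 surface ectoderm markers measured, was at 0.42 on the log2 scale, with a summed signal of 92.3 in fibers and 96.7 in epithelium. Of 5 pigment cell markers 2 were measured and went opposite ways, Mitf at 0.27 and Pmel at a bound of -0.80, with a summed signal of 108 in fibers and 162 in epithelium. Of 4 macrophage markers 2 were measured, Aif1 at -0.68 and Csf1r with no direction, with a summed signal of 80.6 in fibers and 97.5 in epithelium. The part of all these markers in the ratios of the contractile genes was not tested.

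Promoters of 3 members are shown because each differed by 2-fold or more and held a CArG box, the element bound by serum response factor, a regulator of many actin and myosin genes. They are the 250 bases before the gene's start, from RefSeq (GRCm38.p6), with the CArG box in capitals. Myl6 is at chr10:128493010-128493259 on the minus strand, Myo1e at chr9:70207100-70207349 on the plus strand and Cnn2 at chr10:79988350-79988599 on the plus strand.
Myl6: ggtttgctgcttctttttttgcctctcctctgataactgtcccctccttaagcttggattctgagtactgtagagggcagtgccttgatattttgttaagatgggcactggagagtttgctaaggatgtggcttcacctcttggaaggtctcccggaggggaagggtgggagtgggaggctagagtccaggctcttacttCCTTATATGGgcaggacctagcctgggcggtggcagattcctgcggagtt
Myo1e: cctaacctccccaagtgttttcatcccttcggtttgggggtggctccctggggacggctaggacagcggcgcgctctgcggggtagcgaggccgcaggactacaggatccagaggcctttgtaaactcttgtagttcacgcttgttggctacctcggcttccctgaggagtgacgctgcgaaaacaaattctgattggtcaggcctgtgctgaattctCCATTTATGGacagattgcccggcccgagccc
Cnn2: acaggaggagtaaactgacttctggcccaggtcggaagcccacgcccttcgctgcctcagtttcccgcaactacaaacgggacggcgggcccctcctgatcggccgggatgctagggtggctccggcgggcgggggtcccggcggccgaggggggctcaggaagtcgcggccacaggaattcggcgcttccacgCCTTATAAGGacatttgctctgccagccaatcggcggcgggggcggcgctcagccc

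Counted from the gene's start, the box began at position -50 in Myl6, -32 in Myo1e and -56 in Cnn2. Myl6 and Myo1e were higher in fibers and Cnn2 in epithelium, so the box stood before genes of both directions. The CArG pattern reads the same on both strands, and it was searched in windows of 300 bases, including 50 after the start. It was present in 11 of 95 windows for the 78 members with an entry (11.6%), against 1.63% of all 32851 windows. Among the 18 striated muscle forms listed above it was in 5 of 20 windows, and among the other members in 6 of 75. Besides Myl6, Myo1e and Cnn2, the members with a CArG box were below the floor: Acta1, Actc1, Arpc4, Myh4, Myl3, Myl7, Myl9 and Vcl. A match describes the letters only and is not evidence of binding. Srf, the gene of the factor itself, read 180 in fibers and 407 in epithelium (2.26-fold higher in epithelium). Its coactivator Mrtfb read 74.1 in fibers and 122 in epithelium (1.65-fold higher in epithelium), and a second Mrtfb probe was at least 3.36-fold higher there. Srf and Mrtfb were the 2 measured of 4 genes in a list of this factor and its coactivators. Mrtfa and Myocd were below the floor. At 2-fold or more higher in epithelium was 1 gene of the list (background 18.5%). The count was 0 when scaled to the median of all genes (background 14.6%) and 2 when scaled to housekeeping genes (42.6%).

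Other actin regulators, in lists made for this comparison, were read against the same background, 15.5% higher in fibers and 18.5% higher in epithelium. The WAVE and WASP proteins switch on the Arp2/3 complex. Of 16 such genes 11 were measured, 6 at 2-fold or more on the fibers side and 0 on the epithelium side (median log2 ratio 1.04). Abi2, an adaptor of the WAVE complex, read 1274 in fibers and 360 in epithelium (3.54-fold), with 2 more probes at 4.78-fold and at least 2.97-fold. Brk1, its smallest subunit, read 212 in fibers and 69.8 in epithelium (3.03-fold), Wasl, N-WASP, 181 in fibers and 68.0 in epithelium (2.67-fold), and Wasf2, WAVE2, gave a bound of at least 2.63-fold. The Arp2/3 subunits themselves had a median of -0.35. The housekeeping list leaned the same way before that scaling, with 9 of 18 measured genes at 2-fold or more higher in fibers (median 0.93). Scaled to housekeeping genes the WAVE and WASP median was 0.22, with no gene at 2-fold or more in fibers and 2 in epithelium. Background under that scaling was 4.61% higher in fibers and 42.6% higher in epithelium, with a median of -0.57 over all measured genes.

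Regulators of cofilin and filament disassembly had a median of 0.82 over 13 measured genes, 3 at 2-fold or more higher in fibers and 1 in epithelium, and 0.00 when scaled to housekeeping genes. Limk2, a kinase that inactivates cofilin, read 230 in fibers and was below the floor in epithelium (at least 5.14-fold), but a second Limk2 probe was at -0.82. Limk1 was 2.31-fold and Dstn, the cofilin relative destrin, at least 2.36-fold higher in fibers. Coro2a, a coronin, was 3.74-fold higher in epithelium.

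Bundling and membrane-linking proteins had 3 of 13 measured genes at 2-fold or more each way (median 0.17, and -0.64 when scaled to housekeeping genes). Cald1, caldesmon, an actin-binding inhibitor of myosin, read 241 in fibers and 69.8 in epithelium (3.45-fold), and Fscn1, the bundler fascin, 572 in fibers and 207.5 in epithelium (2.76-fold). Msn, moesin, which ties filaments to the membrane, read -2.87 in fibers and 131 in epithelium (at least 4.08-fold higher in epithelium). Pls3, a plastin, was at least 3.58-fold and Lasp1 2.02-fold higher there.

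Of 8 measured focal adhesion and Ena/VASP genes, 1 was at 2-fold or more higher in fibers and 2 in epithelium (median 0.38, and -0.17 when scaled to housekeeping genes). Ilk, integrin-linked kinase, was at least 3.65-fold higher in fibers, with a second probe at -0.54. Tln1, talin 1, was at least 2.90-fold and Enah, an actin elongation factor, 2.11-fold higher in epithelium, and Evl, a relative of Enah, gave at least 1.66-fold on the fibers side. The 8 genes of the gelsolin family were below the floor on both arrays.

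**Figure D4:**
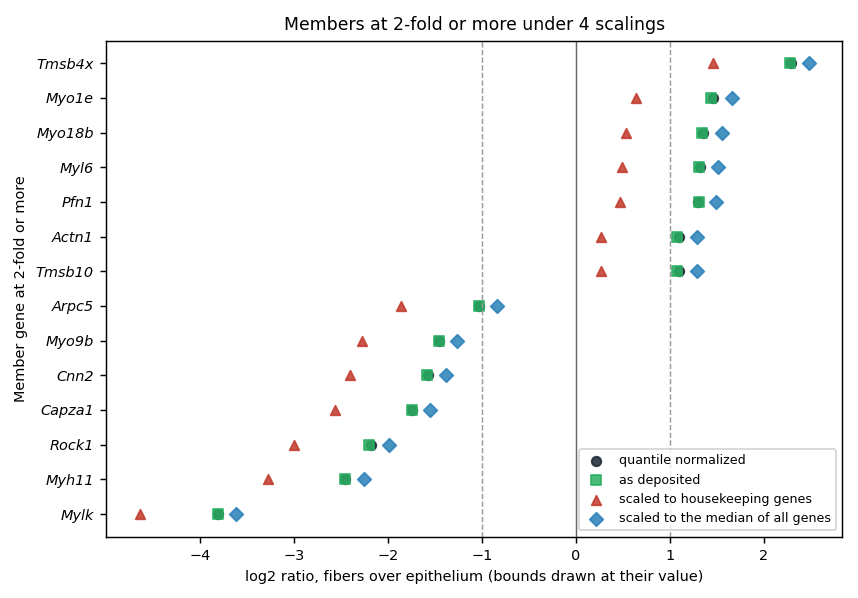
Log2 ratio of fibers over epithelium for the 14 members at 2-fold or more, under 4 scalings of the arrays. For the 7 genes with a bound the sign is fixed by which array exceeded its floor, and the housekeeping scaling moves every gene toward epithelium. Under that scaling only Tmsb4x (1.46) stayed past 2-fold on the fibers side. The 7 genes on the epithelium side lie between -1.86 and -4.64 under that scaling.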

How the data were processed

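Biotin-labelled total RNA was hybridised to 1-colour Illumina arrays, per the labels' protocols. The authors deposited 1 whole-number intensity per probe on a linear scale, with lowest values of -16 on both arrays, so a background had been subtracted. How this was done, and whether the arrays were scaled, is not stated in the sources used here. Probes were named through the platform annotation (34885 with 1 gene symbol, 18 with several, 10378 with none).

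Quantile normalization of the 2 arrays on the linear scale hides any difference in total RNA. A gene was represented by the probe with the highest mean of both arrays. Floors, bounds and ratios were computed with Python 3.11.15, pandas 2.3.3 and NumPy 2.4.6, and the steps were tested on simulated data with known folds. The simulated folds were placed only in probes whose mean reading was well above the floor, so that test says little of genes near it. Probe sequences were not used here, so signal from related gene copies, frequent for actins and thymosins, was not tested. With 1 array per group no test was run.

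Members, roles and lists were chosen with earlier results of these data known, and the striated muscle list after their values were seen. Named genes were, per role, all members at 2-fold or more and the 2 with the highest signal. From each other list up to 4 genes with the largest absolute log2 ratio were named, plus any at 2-fold or more against the list median. Arhgap35 and Shroom3 were added after their values were seen, and 1 list is not reported here. A gene with no direction enters a median as 0.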

Additional observations from a re-analysis of the deposited data

How the results depend on the processing

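In all, 9 settings were compared with the values above, besides other fold limits. As deposited, scaled to the median of all genes, with a common floor, with no floor or with the probe highest on either array (chosen after seeing the data), both counts of 7 genes stayed within 1.5 times. Scaled to housekeeping genes, the 2-fold counts were 1 on the fibers side and 14 on the epithelium side, a scaling that lowers every log2 ratio measured on both arrays by 0.83. With the 99th percentile floor the counts were 2 in fibers and 4 in epithelium, over 24 measured genes instead of 35. The mean of all probes left 4 higher in fibers, and the second brightest probe 4 in fibers and 4 in epithelium. At 1.5-fold 13 genes were higher in fibers, and at 3-fold 1 in fibers and 4 in epithelium. The median log2 ratio ran from -0.64 (scaled to housekeeping genes) to 0.19 (scaled to the median of all genes, a shift of 0.19). Of the 14 genes at 2-fold or more, 7 are bounds whose sign was fixed while the dim array stayed below its floor, so signs are no check of them. Tmsb10 and Tmsb4x had no direction with the second brightest probe, nor had Myo1e with the mean of all probes and Tmsb10 with the 99th percentile floor. Of 284 single-gene values under these settings, 60 moved by more than 0.75, the SD of a log2 ratio estimated from pairs of probes, 30 of them when scaled to housekeeping genes. Mylk stayed past 2-fold in all 9 settings, while Tmsb10 did in 4. Capza1 stayed past it as well, but has 1 probe, so the settings that choose or average probes could not change it. Apart from the housekeeping scaling and the strict floor, whose construction accounts for the change, the cause was not tested. No paired analysis was possible because there was 1 array per group. Signal over background limits the rest: 57 of 92 members were below the floor.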
